A study of Mus musculus with 6 samples.

Results

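Fibrillar collagens are the rope-like proteins of connective tissue. Chains wind together into a helix inside the cell, the ends are trimmed after secretion, and the trimmed molecules pack side by side into fibrils. Lysyl hydroxylases such as Plod2 modify lysines of the chains before secretion, and lysyl oxidases such as Lox and Loxl2 then oxidise lysines outside the cell so that neighbouring molecules become covalently crosslinked. In skin and in tumour stroma these genes are mostly known as products of fibroblasts and related mesenchymal cells. The set described here was taken by gene symbol and holds 10 of the 24391 genes counted: the collagen genes Col1a1, Col1a2, Col3a1, Col5a1, Col5a2, Col5a3 and Col11a1, and the crosslinking genes Lox, Loxl2 and Plod2.

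RNA sequencing compared 3 libraries labelled KMT2D WT with 3 labelled KMT2D KO, to ask how expression differs between mouse melanoma cells with and without intact Kmt2d, the gene of a histone H3 lysine 4 methyltransferase. Both groups were cells isolated from ear tumours of iBIP mice, which carry Tyr-CreERT2 (tamoxifen-activated Cre under a melanocyte-lineage promoter), Rosa26-rtta and a TetO-driven mutant BRAF transgene, and homozygous floxed alleles including INK/ARFL/L, on a mixed FVB and B6 background. Mice of both groups were given doxycycline, and 4-OHT was applied to the ears. The WT cells came from iBIP;KMT2D+/+ mice and the KO cells from iBIP;KMT2DL/L mice. Cells of both groups were grown in high-glucose DMEM. Whether the 3 libraries of a group were separate cultures, tumours or mice is not stated in the labels. The p-values therefore reflect library-to-library spread alone, possibly technical, and genotype cannot be told apart from the tumour that the cells came from.

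Total counts ran from 43168605 to 59360068 per WT library and from 55594979 to 79718782 per KO library. The targeted gene Kmt2d, counted over the whole gene, had 89.3 ± 10.6 and 74.0 ± 5.32 CPM (SD, n = 3; CPM is the count per 1e6 counts of the TMM-adjusted library size), a log2 fold change of -0.27 (edgeR adjusted p = 0.0075), and the groups overlapped. The call was lost without KMT2D KO replicate 2 (-0.21, adjusted p = 0.058), and the value was -0.17 without KMT2D WT replicate 3; gene totals do not show whether a floxed part was lost. Of 10 melanocyte markers, 1 exceeded a mean of 1 CPM in WT and 2 in KO: Mitf had 15.4 CPM in WT and 53.2 CPM in KO, whereas the pigment genes Tyr, Tyrp1 and Dct stayed at or under 0.0765 CPM on average in each group and Mlana at or under 0.360 CPM. Pmel had 0.698 CPM in WT and 1.03 CPM in KO, and Sox10 had 0.444 and 0.300 CPM, and neither was called. Kit stayed at or under 0.0554 CPM on average in each group. The extraction protocol in the labels names cerebellar tissue, and the 10 cerebellum markers together summed to 1.01 to 1.15 CPM in WT libraries and 3.61 to 5.02 CPM in KO libraries. Cbln3 (0.279 CPM in WT and 2.35 CPM in KO) and Syt1 (0.415 and 1.73 CPM) carried most of that rise. Calb1, Neurod1 and Zic1 had no count in KO, and Gabra6 had none in WT.

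All 10 genes passed the low-count filter, and all 10 were called higher in KMT2D KO (edgeR adjusted p under 0.05), 9 of them with a log2 fold change above 1. The genes were chosen with earlier results of these data known, so this count is a description and not independent support. Over all 14579 tested genes, 71.0% were called in either direction, 35.4% were called higher, and 13.9% were called higher with a log2 fold change above 1 (26.8% in either direction, 12.9% lower). In each of the 10 genes every KO library exceeded every WT library; the groups were likewise apart in 74.3% of tested genes. The median log2 fold change of the 10 genes was 1.61, against 0.00 for all tested genes. Together the 10 genes took 0.735% to 0.765% of the counts in WT libraries and 2.64% to 2.74% in KO libraries. In bulk RNA, a change in the share of cells of a type and a change in RNA per cell cannot be told apart.

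**Figure D1:**
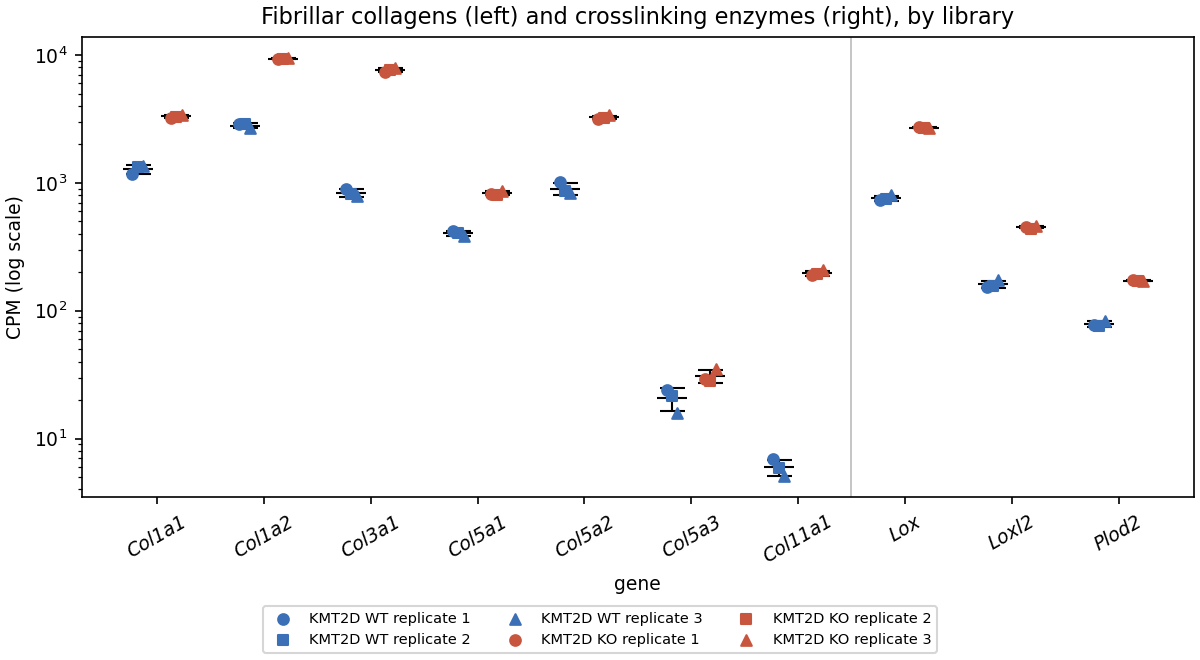
CPM (log scale) of each gene in each library, with WT libraries in blue, KO libraries in red, and the group mean ± SD (n = 3) as black bars. In every gene the KO points lie above the WT points; the gap is widest for Col11a1 and narrowest for Col5a3.

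Type I collagen, the main collagen of skin, bone and scar, is built from the products of Col1a1 and Col1a2. Col1a2 (mm9 chromosome 6, 4455697 to 4491543, plus strand) gave 2886, 2867 and 2671 CPM in WT replicates 1, 2 and 3, and 9245, 9369.9 and 9542 CPM in KO replicates 1, 2 and 3. The KO libraries were all far above the WT libraries. The mean rose from 2808 ± 119 to 9385 ± 149 CPM (SD, n = 3), for which edgeR gave log2 fold change 1.74 with SE 0.05 (adjusted p = 1.7e-13). Col1a1 (chromosome 11, 94797584 to 94813170, plus strand) gave 1166, 1339 and 1346 CPM in WT, with replicate 1 lowest, and 3223, 3293 and 3426 CPM in KO. Its mean rose from 1284 ± 102 to 3314 ± 103 CPM, for which edgeR gave log2 fold change 1.37 with SE 0.06 (adjusted p = 2.7e-11).

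Type III collagen, a homotrimer of the Col3a1 product that co-assembles with type I in elastic tissues and early scars, showed the larger change. Col3a1 (chromosome 1, 45368383 to 45406551, plus strand) gave 902, 823 and 784 CPM in WT and 7433, 7657 and 7893 CPM in KO. The lowest KO library was thus far above the highest WT library. From a mean of 836 ± 60.1 CPM it rose to 7661 ± 230.0 CPM, 9.16 times the WT level, and edgeR gave log2 fold change 3.20 with SE 0.06 (adjusted p = 2.2e-15). Of all tested genes, 7.02% had a larger absolute log2 fold change.

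Type V collagen is a minor chain set that nucleates type I fibrils and limits their width, and its genes rose to unequal degrees. Col5a2 (chromosome 1, 45431176 to 45560127, minus strand), which lies 24624 bases from Col3a1 with no other counted gene between them, gave 1008, 865 and 832 CPM in WT and 3187, 3224 and 3382 CPM in KO. It rose from 902 ± 93.7 to 3264 ± 103 CPM, for which edgeR gave log2 fold change 1.86 with SE 0.07 (adjusted p = 2.9e-12). Col5a1 (chromosome 2, 27741945 to 27895030, plus strand) gave 422, 407 and 382 CPM in WT and 817, 808 and 870.4 CPM in KO, and edgeR gave log2 fold change 1.04 with SE 0.05 (adjusted p = 2.1e-10). The groups were well separated in Col5a1 although its rise was smaller than that of Col5a2.

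Col5a3 (chromosome 9, 20574494 to 20619478, minus strand), which encodes a type V chain of restricted distribution, changed least. It gave 24.1, 21.7 and 16.0 CPM in WT and 29.1, 28.2 and 35.1 CPM in KO, so the highest WT library was 24.1 and the lowest KO library 28.2 CPM. The mean rose from 20.6 ± 4.17 to 30.8 ± 3.75 CPM, for which edgeR gave log2 fold change 0.57 with SE 0.13 (adjusted p = 0.00091). Of all tested genes, 47.1% had a larger absolute change.

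Col11a1 (chromosome 3, 113733458 to 113923244, plus strand) encodes a type XI chain, best known from cartilage, that can also join type V chains in fibrils. It was scarce in WT at 6.87, 5.91 and 5.07 CPM and reached 189.9, 194 and 207 CPM in KO. These were 227 to 402 counts per WT library and 10993 to 14572 counts per KO library. The mean rose from 5.95 ± 0.901 to 197 ± 8.71 CPM, 33.1 times the WT level, and edgeR gave log2 fold change 5.04 with SE 0.09 (adjusted p = 1.5e-15). Only 2.96% of tested genes had a larger absolute change. The partner chain genes of type XI collagen were far less abundant or did not rise with it: Col2a1 (type II collagen, which also supplies a chain of type XI) rose from 0.290 ± 0.0166 to 4.48 ± 0.401 CPM (log2 fold change 3.94, adjusted p = 1.2e-09), and Col11a2 fell from 8.13 ± 1.42 to 5.72 ± 0.485 CPM (-0.51, adjusted p = 0.0055). Of the 9 cartilage and bone markers, 2 exceeded 1 CPM in WT and 3 in KO. Matn1 had no count in WT and 0, 2 and 6 counts in the KO libraries. The summed level of the 9 was 30.9 to 41.7 CPM in WT and 54.1 to 56.8 CPM in KO, and Sox9 (10.3 and 34.3 CPM) carried that rise. Of the 4 tested, Sox9 (1.75) and Comp (3.17) were called higher and Runx2 (-0.36) and Sp7 (-3.04) lower. Among all tested genes, 35.4% were called higher and 35.5% lower. The part of these markers in the Col11a1 result was not tested.

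The 250 bases before the RefSeq start (GRCm38.p6, a different build from the mm9 of the counts) were at hand for 5 of the 10 genes and are printed for 4: the largest rises (Col11a1 and Col3a1), the most abundant gene (Col1a2) and the smallest rise (Col5a3). They run 5′ to 3′ on the strand of the gene, and capitals mark each match, on either strand, to 6 short motifs that are spelled out after the sequences. The windows are chr6:4505368-4505617 (plus strand) for Col1a2, chr1:45311288-45311537 (plus) for Col3a1, chr3:114030290-114030539 (plus) for Col11a1 and chr9:20815068-20815317 (minus) for Col5a3.
Col1a2: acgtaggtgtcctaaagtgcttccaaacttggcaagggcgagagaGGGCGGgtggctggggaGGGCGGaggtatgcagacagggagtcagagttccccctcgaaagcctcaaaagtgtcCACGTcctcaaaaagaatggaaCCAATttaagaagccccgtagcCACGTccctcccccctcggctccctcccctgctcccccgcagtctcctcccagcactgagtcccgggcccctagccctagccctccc
Col3a1: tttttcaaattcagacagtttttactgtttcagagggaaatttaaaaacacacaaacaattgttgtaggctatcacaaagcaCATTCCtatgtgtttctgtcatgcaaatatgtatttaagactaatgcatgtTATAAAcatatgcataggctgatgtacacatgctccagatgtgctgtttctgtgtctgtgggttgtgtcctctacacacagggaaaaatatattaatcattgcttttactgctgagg
Col11a1: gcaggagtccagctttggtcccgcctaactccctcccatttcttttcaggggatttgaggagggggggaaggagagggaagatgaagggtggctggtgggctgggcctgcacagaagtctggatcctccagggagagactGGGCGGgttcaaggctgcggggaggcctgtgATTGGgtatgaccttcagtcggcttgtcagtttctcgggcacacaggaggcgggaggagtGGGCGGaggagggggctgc
Col5a3: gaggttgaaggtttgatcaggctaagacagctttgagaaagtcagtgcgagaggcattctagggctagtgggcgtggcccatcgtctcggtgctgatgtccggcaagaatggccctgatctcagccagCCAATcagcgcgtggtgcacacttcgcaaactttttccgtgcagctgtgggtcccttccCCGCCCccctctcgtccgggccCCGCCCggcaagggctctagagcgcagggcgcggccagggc

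Col1a2, Col5a3 and Col11a1 each held CCAAT and GGGCGG, and Col3a1 shared no motif match with the other windows. CCAAT was matched in Col1a2 (starting 109 bases before the gene start), Col5a3 (122 bases) and, on the opposite strand, Col11a1 (79 bases), and not in Col3a1 or Col5a1; of 32841 RefSeq windows of the same length, 33.9% held it. GGGCGG, a GC box, was matched 2 times in each of Col1a2, Col5a1, Col5a3 and Col11a1 and not in Col3a1 (32.7% of windows). Col3a1 alone among the 5 held the core promoter motif TATAAA (at 117 bases; 12.4% of windows), and, on the opposite strand, GGAATG, known from TEAD factors (at 168 bases; 12.6% of windows). ACGTG, the core of the hypoxia response element, was matched on the opposite strand 2 times in Col1a2 and 1 time in Col5a1 (16.6% of windows). The AP-1 motif TGANTCA was matched in none of the 5 (6.75% of windows). These matches did not overlap each other. The matches are a description of letters and do not show binding.

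Per length, the order of the genes differed between the groups. In RPKM (CPM per kilobase of exon), WT levels ran Col1a2 (546 ± 23.2), Col1a1 (273 ± 21.8), Lox (154 ± 7.12), Col3a1 (150.3 ± 10.8), Col5a2 (136 ± 14.2), Col5a1 (48.0 ± 2.44), Loxl2 (31.1 ± 2.02), Plod2 (21.2 ± 1.09), Col5a3 (3.38 ± 0.685) and Col11a1 (0.818 ± 0.124; all SD, n = 3). The library ranges of Lox and Col3a1, and of Col3a1 and Col5a2, overlapped, and those of the other neighbours did not. In KO, Col3a1 (1377 ± 41.3 RPKM) stood above Col1a1 (705 ± 21.9 RPKM) and Lox (547 ± 4.16 RPKM), and Col11a1 (27.1 ± 1.20 RPKM) above Col5a3 (5.06 ± 0.616 RPKM). No neighbours in the KO order overlapped.

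The chain composition also differed. Summed over the 7 collagens and Col2a1, Col11a2, Col24a1 and Col27a1, the fibrillar collagen level was 1123 to 1181 RPKM in WT libraries and 4434 to 4656 RPKM in KO libraries, 3.91 times higher on average (exact two-sided permutation test, p = 0.1, the smallest that 3 against 3 allows). Col3a1 made up 13.7%, 12.6% and 12.5% of that sum in the WT libraries and 30.1%, 30.5% and 30.5% in the KO libraries. The share of Col1a1 was lower in KO, at 15.6% ± 0.0982 against 23.6% ± 2.33 (SD, n = 3), and so was that of Col1a2, at 40.2% ± 0.357 against 47.1% ± 0.696. Col5a2 held 11.7% ± 1.01 in WT and 10.9% ± 0.0968 in KO, a difference smaller than the SD of the WT libraries, although the lowest WT share (11.1%) was just above the highest KO share (10.98%). Col11a1 held 0.0704% ± 0.00901 in WT and 0.597% ± 0.0118 in KO.

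**Figure D2:**
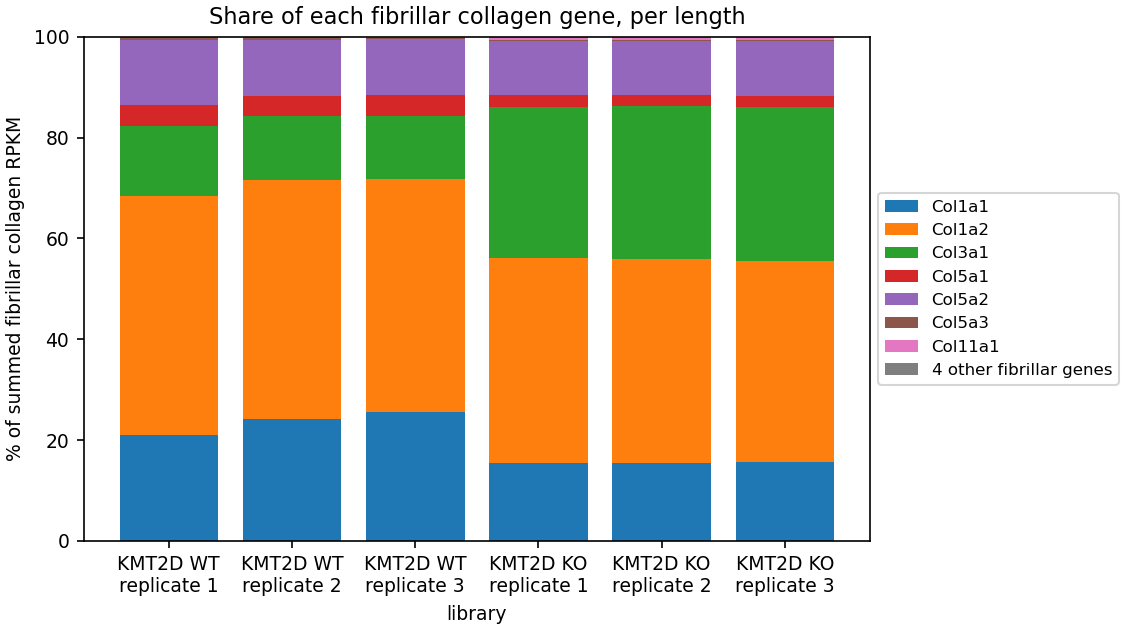
Stacked bars give the percentage of the summed fibrillar collagen RPKM that each gene took in each of the 6 libraries. The Col3a1 band spans 12.5% to 13.7% in WT and 30.1% to 30.5% in KO, and the Col1a1 band is narrower in KO.

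Ratios within a library do not depend on how libraries are scaled, and 8 pairs were compared. Per length, Col1a1 transcripts were below Col1a2 in every library. The ratios were 0.442, 0.511 and 0.552 in WT and 0.382, 0.385 and 0.393 in KO. Type I collagen protein usually holds a pair of Col1a1 chains and 1 Col1a2 chain, which transcript ratios do not measure. The ratio of Col3a1 to Col1a1 was 0.653, 0.519 and 0.491 in WT and 1.95, 1.96 and 1.95 in KO, a log2 difference of 1.83. For the neighbouring genes Col3a1 and Col5a2 it was 1.06 to 1.13 in WT and 2.77 to 2.82 in KO (log2 difference 1.34).

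Within type V, the ratio of Col5a1 to Col5a2 was 0.353 in WT and 0.201 in KO (geometric means; log2 difference -0.82), and that of Col5a3 to Col5a1 was 0.0695 and 0.0509 (-0.45). Col11a1 was 0.0169 of the Col5a1 level in WT and 0.273 in KO (log2 difference 4.01). Among the enzymes, the ratio of Loxl2 to Lox was 0.201 in WT and 0.159 in KO (log2 difference -0.34), and that of Plod2 to Plod1 was 0.701 and 1.06 (0.60). The groups did not overlap in any of the 8 ratios, and each gave p = 0.1 in the exact two-sided permutation test (adjusted p = 0.1 over the 8), the smallest value possible with 3 against 3, so none could pass 0.05.

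**Figure D3:**
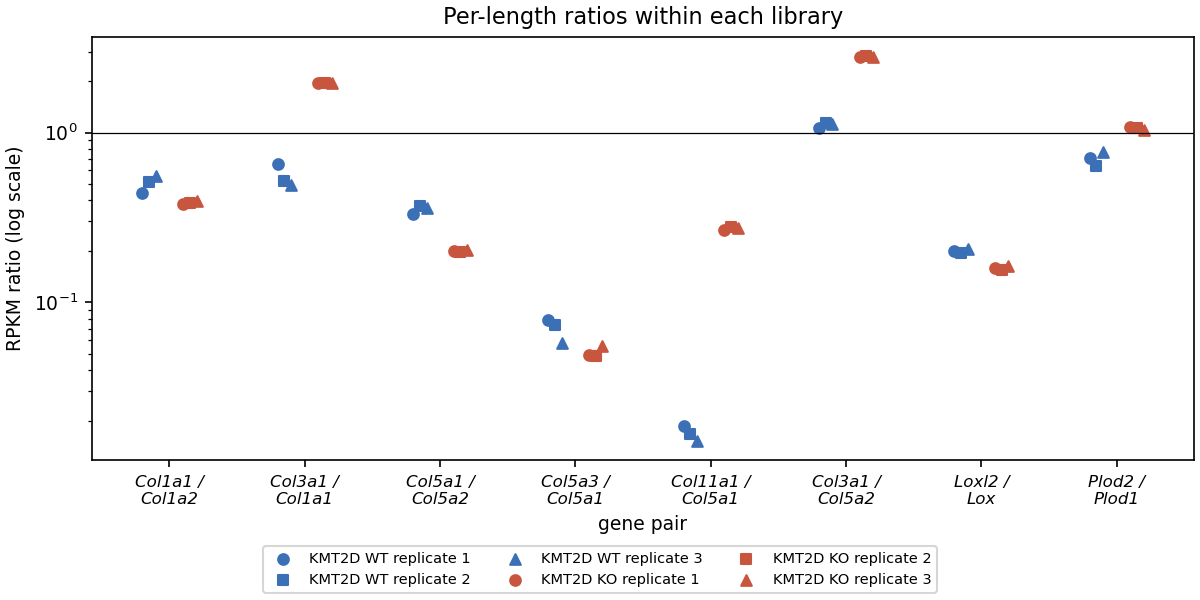
RPKM ratio (log scale) of each of 8 gene pairs in each library, WT in blue and KO in red, with a line at 1. Col3a1 / Col1a1 and Plod2 / Plod1 lie below 1 in WT and above 1 in KO, and Col11a1 / Col5a1 shows the widest gap.

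Among the crosslinking enzymes, Lox, the lysyl oxidase that initiates collagen and elastin crosslinks, was the most abundant. Lox, on mm9 chromosome 18, gave 729, 754 and 799 CPM in WT and 2721, 2683 and 2689 CPM in KO. The KO libraries were close to each other and all far above the WT libraries. Lox rose from 761 ± 35.2 to 2698 ± 20.5 CPM (SD, n = 3), for which edgeR gave log2 fold change 1.83 with SE 0.05 (adjusted p = 1.4e-13).

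Loxl2 (chromosome 14, 70009283 to 70095641, plus strand), a lysyl oxidase-like enzyme that acts on type IV and fibrillar collagens, gave 154, 156 and 173 CPM in WT and 454, 439 and 462 CPM in KO. It rose to 2.81 times the WT level, and edgeR gave log2 fold change 1.49 with SE 0.06 (adjusted p = 5.8e-12). Plod2 (chromosome 9, 92437061 to 92503265, plus strand), the lysyl hydroxylase of the telopeptides, where the stable crosslinks form, gave 77.0, 75.4 and 83.1 CPM in WT and 173, 171 and 172 CPM in KO. The log2 fold change from edgeR was 1.13 with SE 0.05 (adjusted p = 9.6e-11). Of the 3711 exon bases of Plod2, 346 also belong to B430319G15Rik, and 7 of the 5180 of Loxl2 to Mir6950. Fragments that overlap 2 genes are left out by default, so Plod2 may be undercounted in each group.

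None of the 3 other lysyl oxidase genes was called higher, and 1 was called lower (35.4% and 35.5% of all tested genes). Loxl3 had 381 ± 23.6 CPM in WT and 202 ± 3.98 CPM in KO (SD, n = 3) and fell by 0.92 on the log2 scale (edgeR adjusted p = 1.3e-09), and 533 of its 4049 exon bases overlap Htra2. Loxl1, chosen after its values were seen, had 275 and 266 CPM and did not pass the test (-0.05, adjusted p = 0.46), and its value was 0.01 when KMT2D WT replicate 2 was left out. Per length, Lox thereby took 42.4% ± 1.69 of the summed RPKM of the 5 family members in WT and 71.5% ± 0.406 in KO, while Loxl3 took 25.9% ± 1.81 and 6.51% ± 0.0991. Loxl2 held 8.55% ± 0.542 in WT and 11.4% ± 0.221 in KO.

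Within the lysyl hydroxylases, Plod2 went from 22.7% ± 1.57 to 36.2% ± 0.521 of the summed family RPKM and Plod3 from 45.0% ± 0.748 to 29.7% ± 0.305 (SD, n = 3). Plod1, which hydroxylates lysines of the helix, rose from 98.2 to 142 CPM (log2 fold change 0.53, edgeR adjusted p = 6.7e-07). Plod3 had 138 and 125 CPM (-0.15, adjusted p = 0.021), a call that was lost without KMT2D WT replicate 2 (-0.12), KMT2D KO replicate 1 (-0.12) or KMT2D KO replicate 2 (-0.13), and without the low-count filter (-0.12, adjusted p = 0.099).

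Changes of the 10 genes were set beside the medians of their chromosomes, given here as a description without a test. The median log2 fold change of tested genes was -0.50 on chromosome 18 (Lox), -0.30 on chromosome 9 (Col5a3 and Plod2), -0.13 on chromosome 14 (Loxl2), -0.06 on chromosomes 1 and 3 (Col3a1, Col5a2 and Col11a1), 0.07 on chromosome 11 (Col1a1), 0.27 on chromosome 2 (Col5a1) and 0.42 on chromosome 6 (Col1a2). In each of the 10 genes the log2 fold change exceeded the median of its chromosome. This follows from the values above and adds no support: the smallest of the 10 (0.57, Col5a3) exceeded the highest of these medians (0.42). The medians for Col1a1, Col5a1 and Col1a2 were above 0, and the part of that in their values was not tested.

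Other genes of collagen synthesis and assembly moved in both directions. Of 57 genes in 8 lists, 52 were tested, of which 28 were called higher, 15 lower and 9 not called, with a median log2 fold change of 0.21 (edgeR; 35.4% of all tested genes were called higher and 35.5% lower). Of these, 11 rose and 6 fell by more than 1 on the log2 scale.

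Enzymes and chaperones of the endoplasmic reticulum prepare the chains before secretion. The list of prolyl hydroxylases and their partner proteins (P4hb, P3h4, Crtap and Ppib) held 10 genes. Of these, 8 rose, 0 fell and 2 were not called (median log2 fold change 0.53), beside 35.4% higher and 35.5% lower among all tested genes. P4ha2, a catalytic subunit of prolyl 4-hydroxylase, rose from 73.0 ± 5.61 to 238 ± 5.62 CPM (SD, n = 3; 1.71, edgeR adjusted p = 3.0e-12), and P3h3, of the prolyl 3-hydroxylase family, from 84.7 to 192 CPM (1.18). P4ha1 (0.55) and P4hb (0.51), picked with their values in view, rose less. Of 9 tested chaperone and export genes, 7 rose, 1 fell and 1 was not called (median 0.73). Creb3l1, a transcription factor of secretory and collagen genes, rose from 20.7 to 62.9 CPM (1.61), and its relative Creb3l2 from 31.6 to 69.6 CPM (1.14), while the export gene Ctage5 fell from 76.4 to 50.3 CPM (-0.60). The collagen chaperone gene Serpinh1 (0.35) and the collagen-binding matricellular gene Sparc (0.73), picked with their values in view, also rose. Mia3, the export receptor gene, was annotated on the mm9 sequence 1_random, was listed at 0 in all 6 libraries and was not tested. This 0 does not show that the transcript was absent, and its reason was not tested.

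Of the 6 tested genes for other lysyl hydroxylases, their cofactors and collagen glycosyltransferases, 3 rose, 2 fell and 1 was not called. The shares among all tested genes were 35.4% higher and 35.5% lower. Fkbp10, a chaperone needed for telopeptide lysine hydroxylation, rose from 153 to 269 CPM (log2 fold change 0.81, edgeR adjusted p = 3.6e-08), and 193 of its exon bases overlap Nt5c3b. Tmem38b, an endoplasmic reticulum cation channel, fell by 0.67 on the log2 scale to 5.65 CPM.

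Secreted procollagen is trimmed at its ends by propeptide proteases and their enhancers. Of 7 tested genes of propeptide proteases and their enhancers, 2 rose and 5 fell, with a median log2 fold change of -0.82. Among all tested genes, 35.4% were called higher and 35.5% lower. Adamts2, the main procollagen N-proteinase, rose from 96.1 ± 2.35 to 375 ± 16.6 CPM (SD, n = 3; 1.96, edgeR adjusted p = 1.4e-13). Pcolce2, an enhancer of C-propeptide cleavage, fell from 31.8 ± 1.34 to 0.429 ± 0.160 CPM (-6.15, adjusted p = 7.4e-14) and Adamts3 from 1.27 to 0.152 CPM. Adamts3 had only 15, 16 and 0 counts in the KO libraries, and its log2 fold change ran from -3.84 to -2.47 over the alternatives (-3.52 without KMT2D KO replicate 2). Pcolce, the other enhancer, chosen after its values were seen, fell from 531 to 138 CPM (-1.95), and the C-proteinase gene Bmp1, chosen likewise, had a value of -0.16 (adjusted p = 0.0088) that was not called without KMT2D KO replicate 1 or 2 (-0.15 each). The N-proteinase gene Adamts14 had a small value (0.16, adjusted p = 0.026) and was not called without KMT2D KO replicate 2 (0.17) or 3 (0.14).

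Cells bind and take up collagen through receptors and digest it in lysosomes. Of 6 such genes tested, 2 rose, 3 fell and 1 was not called (median log2 fold change -0.55), beside 71.0% of all tested genes called. The lysosomal collagenase gene Ctsk fell from 79.6 ± 3.54 to 11.8 ± 1.92 CPM (SD, n = 3; -2.75, edgeR adjusted p = 2.3e-12) and Adgrg1, a receptor for type III collagen, from 14.4 ± 1.67 to 1.36 ± 0.0770 CPM (-3.40). Ddr1, a collagen receptor kinase, rose from 25.5 to 39.6 CPM (0.63), whereas its relative Ddr2, chosen after its values were seen, fell by 0.97 on the log2 scale. The endocytic receptor gene Mrc2 had a value of 0.14 (adjusted p = 0.038) that was lost on leaving out WT replicate 3 (0.09) or any KO replicate (0.17, 0.17 and 0.13 without replicates 1, 2 and 3), and with a filter at a mean of 1 CPM (0.13).

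The remaining fibrillar and fibril-associated collagens were mixed. Col27a1 rose from 3.26 ± 0.948 to 13.8 ± 0.424 CPM (SD, n = 3; log2 fold change 2.08, edgeR adjusted p = 2.4e-08). Col14a1, a fibril-associated collagen that binds the fibril surface, rose from 0.230 to 64.2 CPM (8.01), and Col20a1, of the same class, from 0.811 to 6.38 CPM (2.95). Col12a1, the abundant member of that class, had 3587 ± 178 and 3067 ± 169 CPM and fell by 0.23 on the log2 scale (adjusted p = 0.0018). Of 7 tested fibril-associated genes, 4 rose, 2 fell and 1 was not called, beside 35.4% higher and 35.5% lower among all tested genes.

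**Figure D4:**
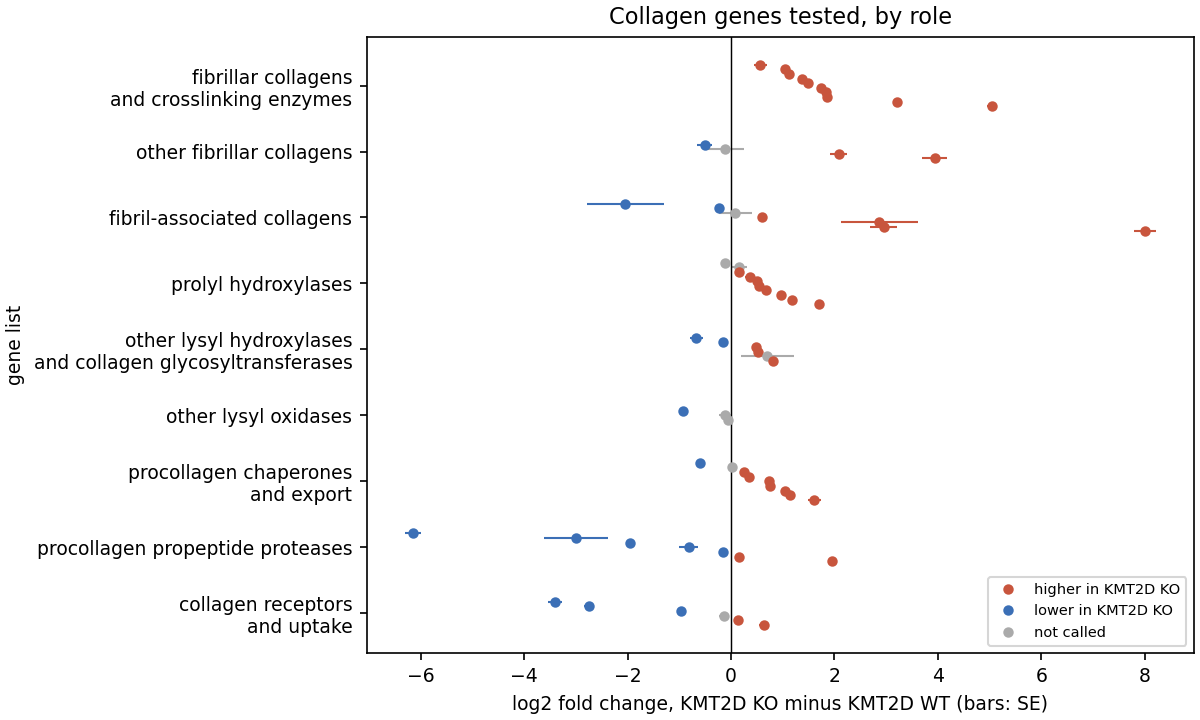
Each point is the log2 fold change (KO minus WT, bar: SE) of a tested gene, grouped by role, in red where called higher, blue where called lower and grey where not called. The 10 fibrillar collagen and crosslinking genes all lie right of 0. The list of propeptide proteases and their enhancers extends left to -6.15 (the enhancer gene Pcolce2), and that of collagen receptors to -3.40.

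Marker lists of collagen-producing and other cells were read beside these results. For comparison, 35.4% of all tested genes were called higher and 35.5% lower. Of 10 fibroblast markers, 8 exceeded 1 CPM in WT and 6 in KO, and their summed level was 1167 to 1176 CPM in WT and 1689 to 1768 CPM in KO; 4 were called higher and 5 lower, with a median log2 fold change of -1.42. Pdgfra was the most abundant of them (557 CPM in WT and 1208 CPM in KO), and Dpt (44.8 and 0.839 CPM), Twist2 (65.0 and 3.97 CPM) and Cd34 (107 and 8.57 CPM) fell. Pericyte and smooth muscle markers summed to 478 to 520 CPM in WT and 2221 to 2293 CPM in KO, with 6 of 8 above 1 CPM in each group; 5 were called higher, 0 lower and 3 not called (edgeR, median 0.83). Acta2 carried most of that rise (372 and 2107 CPM), and Tagln had 72.3 and 73.8 CPM. Schwann cell markers summed to 107 to 114 CPM in WT and 213 to 222 CPM in KO, with 6 of 10 above 1 CPM in WT and 3 in KO. Pmp22 (91.2 and 159 CPM) and Egr2 (8.25 and 53.0 CPM) carried that sum, while 4 of the 10 Schwann cell markers were called higher and 5 lower (median -1.05), among them S100b (-4.60). Immune markers summed to 12.0 to 20.7 CPM in WT and 4.47 to 5.45 CPM in KO, endothelial markers to at most 2.46 CPM, and keratinocyte markers to at most 17.7 CPM. Melanocyte markers summed to 16.0 to 17.6 CPM in WT and 50.4 to 59.2 CPM in KO, mostly from Mitf. The part of other cell types in the collagen results was not tested.

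The tested genes whose profile over the 6 libraries was closest to that of Col1a2, the gene with the highest mean RPKM of the 10, were Btg2, Kdm4b and Ppm1k. Their Euclidean distances to Col1a2 in mean-centred log2 CPM were 0.0638, 0.0786 and 0.0879, and their log2 fold changes 1.71, 1.73 and 1.68. With only 2 groups, this likeness reflects mainly the size of the group difference.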

How the data were processed

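RNA was sequenced from 3 KMT2D WT and 3 KMT2D KO libraries. The deposited values were whole-number fragment counts per gene, which the authors made with featureCounts 1.5.2 from exons grouped by gene in an mm9 annotation, per the file headers. STAR and HTSeq are also named in the submitters' processing notes, without roles. No strand or multi-mapping option was set, per the file headers.

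Counts were tested with edgeR 4.0.16 (R 4.3.3), quasi-likelihood F test, TMM scaling, default low-count filter by group, group as the model term, and Benjamini-Hochberg adjustment over 14579 tested genes, with calls at an adjusted p under 0.05. The SE was the log2 fold change divided by the square root of F. RPKM used the exon lengths of the files. Total counts were at least 43168605 per library, and every member had at least 227 counts in each library. On simulated counts of this comparison (14422 genes), 97% of the 100 genes changed by 1 on the log2 scale were recovered. Of the 99 changed by 2, 100% were recovered, and 6 unchanged genes were called. The simulation gave every gene the same dispersion and changed far fewer genes than were called in the data. Recovery under gene-specific spread or with most genes changed was therefore not tested.

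Members and gene lists were chosen with earlier results of these data known. Named genes were all 10 members, Kmt2d, up to 2 risen and 2 fallen called genes per collagen list by size of change (at least 1 CPM in the higher group), and the 3 nearest profiles to the member with the highest mean RPKM. Of 58 listed pathway genes, 57 were matched in the files, and Col21a1 was not analysed here. Alternatives were RLE or no scaling, scaling without the 10 members, DESeq2 1.42.0, limma 3.58.1 voom, other filters, robust estimation, a replicate block and leaving out each library; their use on genes outside the 10 members was added after seeing the data. Some alleles of the strain are not reported here. Promoter windows came from RefSeq, GRCm38.p6.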

Additional observations from a re-analysis of the deposited data

How the results depend on the processing

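All 10 genes were called higher under each of the 15 alternatives to the edgeR fit that were run, and their log2 fold changes kept their direction (Col5a3 0.43 to 0.70, with a highest adjusted p of 0.0099; Col11a1 4.93 to 5.16). The 8 ratios kept their direction without each library. With library sizes and no further scaling, the median over all tested genes went from 0.00 to -0.11 (log2), with 4415 higher and 5987 lower calls in place of 5164 and 5181; under it Adamts14 (0.05) and Mrc2 (0.03) lost their calls and Loxl1 (-0.16, adjusted p = 0.021) gained one. Mrc2 also lost its call with a filter at a mean of 1 CPM (0.13) and Plod3 without the low-count filter (-0.12). Without each library in turn Loxl1 ran from -0.09 to 0.01, the latter, a reversed sign (adjusted p = 0.86), without KMT2D WT replicate 2. The causes were not tested. Replicate numbers did not pair the libraries: same-numbered libraries correlated at 0.01 in their deviations and others at -0.02 to 0.01. With the replicate number as a block, 10368 genes were called in place of 10345, and 10 of the 10 genes stayed higher. The scarcest of the 10 genes, Col11a1, had 227 to 402 counts in WT libraries, and Adamts3 had 0 to 16 in KO libraries.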
